A study of Mus musculus with 15 samples.

Results

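Tight junctions and adherens junctions hold epithelial cells together, and 39 genes of these junctions other than the claudins are described here, out of 54752 genes in the count table. The members were given as a list of gene symbols, and each of the 39 matched 1 row of the table. By role they are 8 membrane proteins of the tight junction or its surroundings, 9 scaffold and plaque proteins, 8 polarity proteins, 4 cadherins, 6 catenins and cadherin linkers, and 3 nectins with EpCAM. RNA was sequenced from proximal tubules of Cldn10a KO mice (3 libraries) and WT mice (4 libraries), and from distal convoluted tubules of Cldn10a KO mice (4 libraries) and WT mice (4 libraries). Cldn10a encodes claudin-10a, a tight junction protein that forms a paracellular pore for anions in the proximal tubule. For each library, 10 proximal or about 20 distal tubules of a kidney were pooled. How the deletion was made, and the strain, age and sex of the mice, were not stated in the descriptions read for this work.

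As background, the tight junction is the apical seal between neighbouring epithelial cells: membrane proteins meet in the gap, and cytoplasmic scaffolds such as ZO-1 tie them to actin. The adherens junction lies just below it, where cadherins and nectins of adjoining cells bind each other and connect to actin through catenins and afadin. The proximal tubule has a leaky tight junction that passes salt and water between cells, and the distal convoluted tubule a tighter one. Polarity complexes, Par3 with Par6 and atypical protein kinase C, and Crumbs with Pals1 and Patj, set where these junctions form.

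The libraries held 28729339 to 51764746 counts, of which 8.02 to 19.7% fell on nuclear protein-coding genes and 57.8 to 71.6% on mitochondrial ribosomal RNA. Levels are given as CPM, counts scaled to a common library size after one normalisation of all 15 libraries. Fold changes are log2 ratios with their SE from limma's moderated test with voom weights, called at a Benjamini-Hochberg adjusted p under 0.05 over all genes tested. Cldn10 had 0, 0 and 0 CPM in the proximal KO libraries, against 11.3, 29.1, 28.9 and 17.7 CPM in the proximal WT libraries, as the genotype labels have it. In distal libraries Cldn10 reached at most 0.579 CPM in KO and 0.477 CPM in WT, too low to check the genotype there. The summed level of 8 proximal tubule markers ran from 3650 to 4120 CPM in proximal KO and 3470 to 4320 CPM in proximal WT libraries, against 7.17 to 14.2 CPM in distal KO and 10.6 to 14.3 CPM in distal WT libraries. The 7 distal convoluted tubule markers summed to 23.2 to 34.8 CPM in proximal KO and 26.8 to 32.5 CPM in proximal WT, mostly Wnk1, against 3540 to 4090 CPM in distal KO and 3080 to 4300 CPM in distal WT. The distal pools also held markers listed for other cells. The 5 thick ascending limb markers summed to 666 to 966 CPM in distal KO and 620 to 1100 CPM in distal WT, against at most 1.87 CPM in proximal KO and 2.43 CPM in proximal WT. Most of that sum was Egf, which the distal convoluted tubule also expresses, at 516 CPM in distal KO and 537 CPM in distal WT on average. Of the same list, Umod averaged 226 CPM in distal KO and 166 CPM in distal WT, and Slc12a1 78.2 CPM and 45.4 CPM. The 5 intercalated cell markers summed to 100 to 192 CPM in distal KO and 159 to 222 CPM in distal WT, against at most 0.393 CPM in proximal KO and 0.504 CPM in proximal WT. The 6 markers of collecting duct and connecting tubule summed to 78.3 to 150 CPM in distal KO and 116 to 160 CPM in distal WT, against at most 5.53 CPM in proximal KO and 6.49 CPM in proximal WT. The part of these cells in the segment results was not tested. In such pools, fewer cells of a type and less RNA per cell cannot be told apart.

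**Figure D1:**
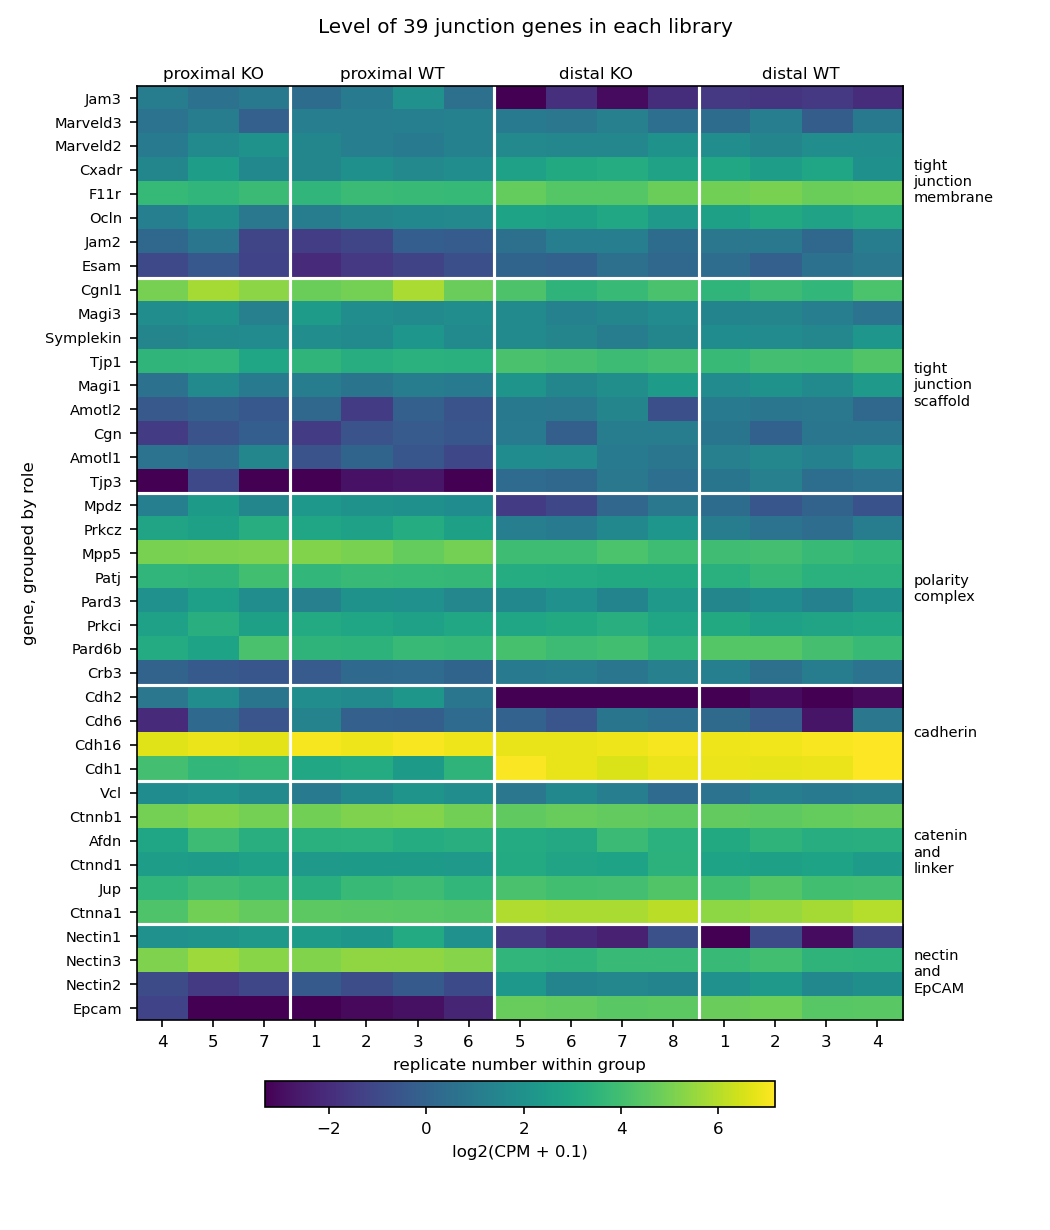
Level of each of the 39 genes in each of the 15 libraries, as log2(CPM + 0.1), with genes in rows grouped by role and libraries in columns grouped by segment and genotype (replicate numbers along the foot). Cdh16 is bright in every column, Epcam and Tjp3 are dark on the proximal side, and Cdh2 and Nectin1 are dark on the distal side.

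Proximal and distal tubules differed in most of these junction genes. In WT mice all 39 members passed the filter on low counts and 29 were called between segments, 10 higher and 19 lower in proximal tubule. Among all 13616 genes tested, 48.5% were called in this comparison, 24.3% higher and 24.2% lower in proximal tubule. In KO mice, whose libraries are none of those used for WT, 24 of 39 members were called, 11 higher and 13 lower in proximal tubule, beside 40.5% of 13835 genes called, 21.3% higher and 19.2% lower. Both comparisons called 22 members in the same direction, which is 91.7% of the KO calls and 75.9% of the WT calls. The 29 members called in WT all had the same sign in KO. The same agreement over all genes is not given here, so it is not shown to be particular to junction genes. The median log2 ratio of the 39 members was -0.34 in KO and -0.29 in WT, against 0.0019 in KO and 0.0052 in WT over all genes tested. The WT libraries of the segments did not overlap for 10 members above and 17 below, beside 45.0% of all genes tested.

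**Figure D2:**
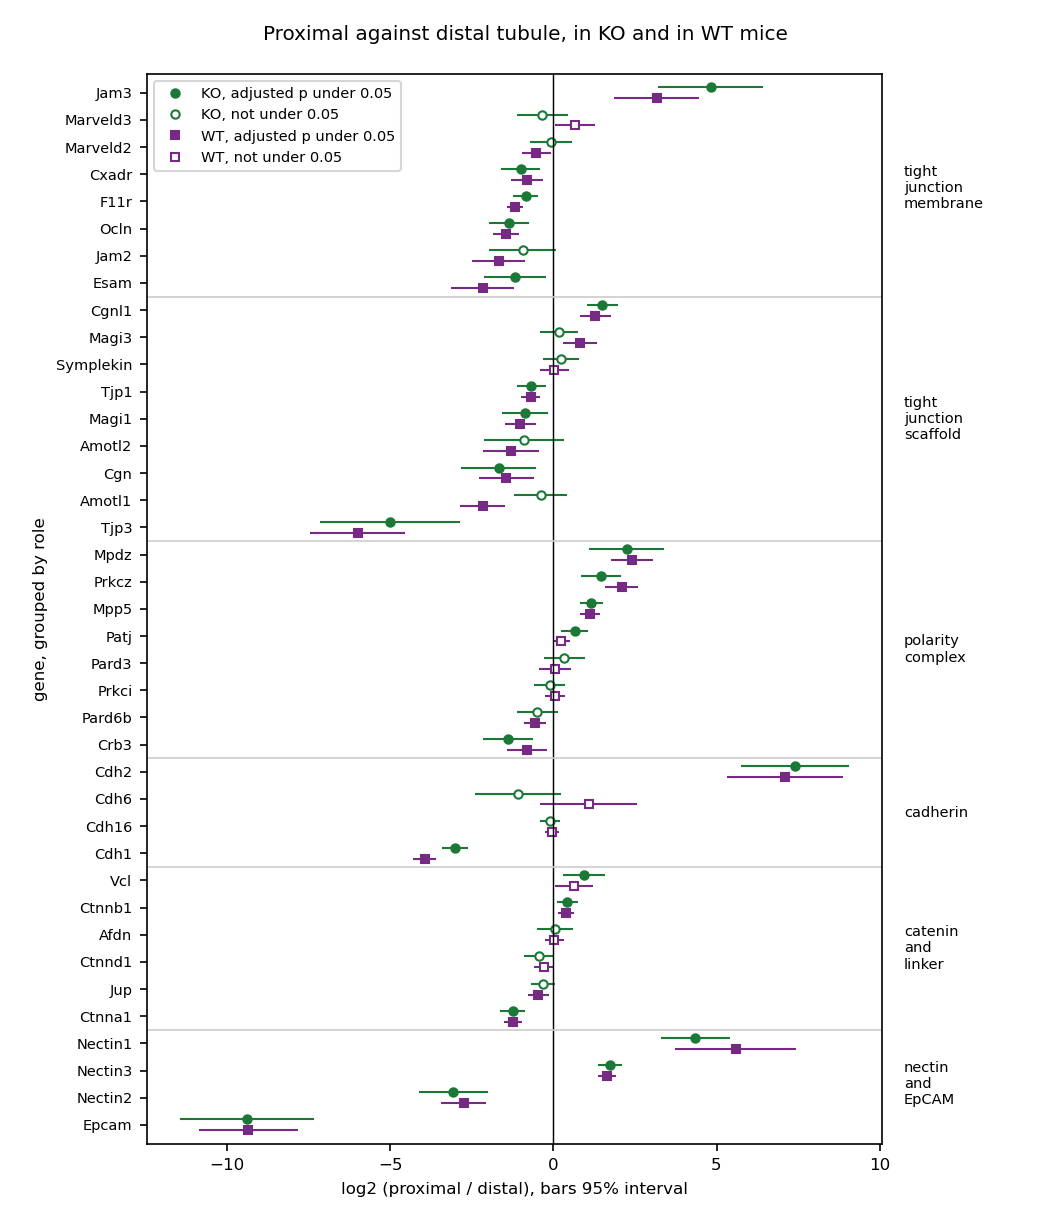
Log2 ratio of proximal over distal tubule for each gene, in KO mice (circles) and WT mice (squares), with 95% intervals and filled symbols where the adjusted p was under 0.05. Values right of 0 are higher in proximal tubule. Cdh2, Nectin1 and Jam3 lie farthest right. Epcam and Tjp3 lie farthest left, followed by Nectin2 and Cdh1, which change places between the genotypes. For genes at or near 0 on one side, such as Cdh2 and Epcam, the fitted ratio depends on the prior count.

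Promoter sequences were at hand for 27 of the 39 members in RefSeq's table for GRCm38.p6, as windows of 250 bases before and 50 after each transcript start. Without a window were Cdh2, Jam3, Mpdz, Mpp5 and Nectin1, all called higher in proximal WT tubule. Also without one were Cdh1, Ctnna1, Jam2, Esam and Cxadr, called lower, and Marveld3 and Cdh16, not called. The windows were searched on both strands for 4 short motifs. No member's window held the HNF4 motif CAAAGTCCA, the shortened HNF1 motif GTTAATNAT or the grainyhead-like motif AACCGGTT, which stood in 0.475%, 0.801% and 0.146% of all 32851 windows. The E-box CAGGTG, bound by Snail-family and other factors, stood in a window of 9 of 14 members lower in proximal WT tubule, 1 of 5 higher and 2 of 8 not called. Over all 27025 genes with a window the share was 22.6%. These counts are descriptions, since windows of a gene can overlap and a match is not a binding site. The 250 bases before a RefSeq transcript start are shown for 4 members lower in proximal tubule, chosen because their windows hold the E-box. Each is given 5′ to 3′ on the gene's own strand with CAGGTG or its reverse complement in capitals. By GENCODE's gene bounds the Nectin2 stretch lies inside the gene, as do most of the Ocln stretch and its marked E-boxes. Only the end of the F11r stretch, past its E-box, reaches into the gene. Ocln's other window held the E-box only after its start.
Epcam, chr17:87635729-87635978, plus strand: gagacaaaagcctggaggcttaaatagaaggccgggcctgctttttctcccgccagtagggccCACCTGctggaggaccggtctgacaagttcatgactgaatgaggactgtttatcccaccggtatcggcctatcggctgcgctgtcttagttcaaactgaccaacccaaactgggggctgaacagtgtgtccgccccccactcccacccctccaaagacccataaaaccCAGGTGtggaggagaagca
F11r, chr1:171437311-171437560, plus strand: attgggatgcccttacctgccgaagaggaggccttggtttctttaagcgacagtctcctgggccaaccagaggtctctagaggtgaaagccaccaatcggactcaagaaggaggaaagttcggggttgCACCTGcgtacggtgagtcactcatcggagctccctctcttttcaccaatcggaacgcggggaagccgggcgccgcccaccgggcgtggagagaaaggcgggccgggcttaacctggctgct
Nectin2, chr7:19749574-19749823, minus strand: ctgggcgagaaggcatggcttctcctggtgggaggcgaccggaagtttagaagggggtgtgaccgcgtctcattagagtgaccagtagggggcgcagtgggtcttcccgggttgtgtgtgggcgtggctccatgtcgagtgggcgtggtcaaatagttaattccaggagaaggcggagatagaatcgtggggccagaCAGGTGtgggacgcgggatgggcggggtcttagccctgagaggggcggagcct
Ocln, chr13:100552499-100552748, minus strand: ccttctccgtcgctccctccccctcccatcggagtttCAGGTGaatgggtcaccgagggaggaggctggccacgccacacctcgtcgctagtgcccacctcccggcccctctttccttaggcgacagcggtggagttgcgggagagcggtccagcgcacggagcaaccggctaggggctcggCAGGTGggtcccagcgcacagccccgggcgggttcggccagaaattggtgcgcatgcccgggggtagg

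The cadherins, the calcium-dependent adhesion proteins of the adherens junction, differed most in Cdh1 and Cdh2. Cdh1 (E-cadherin) had 16.1, 12.2 and 12.8 CPM in the proximal KO libraries and 7.49, 8.68, 5.08 and 11.2 CPM in the proximal WT libraries, against 135.7, 112, 93.9 and 115.9 CPM in the distal KO libraries and 117, 109.4, 115.4 and 139 CPM in the distal WT libraries. The highest proximal library was far below the lowest distal one. The log2 ratio of proximal over distal was -3.02 ± 0.18 in KO (adjusted p = 2.68e-08) and -3.95 ± 0.17 in WT (adjusted p = 4.05e-11).

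Cdh2 (N-cadherin) had the opposite pattern, with 1.68, 3.39 and 1.59 CPM in the proximal KO libraries and 3.45, 3.01, 4.57 and 1.63 CPM in the proximal WT libraries, against 0, 0, 0 and 0 CPM in the distal KO libraries and 0, 0.0229, 0 and 0.0217 CPM in the distal WT libraries. The distal libraries held 0 counts in KO and 2 counts in WT, where 3 counts of a library correspond to 0.0573 to 0.102 CPM. Against 3 counts over the distal KO group, Cdh2 was at least 117-fold higher in proximal KO tubules. In WT mice the ratio of the group sums was 256, with an exact 95% interval of 70.5 to 2120 that covers counting error only, and the adjusted p was 2.58e-06.

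Cdh16 (Ksp-cadherin, a cadherin largely restricted to kidney tubules) was the highest of all 39 members per length of transcript in each of the 4 groups. It had 100.7, 116.6 and 106.4 CPM in the proximal KO libraries and 129.6, 117.4, 134.4 and 119.7 CPM in the proximal WT libraries, against 113.6, 112.8, 118.8 and 128.1 CPM in the distal KO libraries and 118.1, 121.2, 134.3 and 143 CPM in the distal WT libraries. The segments overlapped, and the log2 ratio of proximal over distal was -0.10 ± 0.14 in KO (95% interval -0.40 to 0.21) and -0.04 ± 0.10 in WT (-0.25 to 0.16). Cdh6 (K-cadherin) was low everywhere, at 0.599 ± 0.472 CPM in proximal KO and 1.31 ± 0.777 CPM in proximal WT, against 1.09 ± 0.439 CPM in distal KO and 0.888 ± 0.682 CPM in distal WT (SD), and was not called between segments in either genotype.

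As a share of these 4 cadherins per length, Cdh16 made up 89.4 ± 1.57% in proximal KO and 93.4 ± 1.41% in proximal WT, against 55.5 ± 4.22% in distal KO and 56.4 ± 1.68% in distal WT (SD, n = 3 in proximal KO and 4 in each other group). Cdh1 made up 9.501 ± 1.92% in proximal KO and 5.08 ± 1.77% in proximal WT, against 44.2 ± 4.29% in distal KO and 43.5 ± 1.58% in distal WT. Between segments in WT mice the shares of Cdh1, Cdh2 and Cdh16 each gave an exact two-sided permutation p of 0.0286, the smallest that 4 against 4 libraries can give, or 0.102 after adjustment over the 16 shares tested. In KO mice the same 3 shares gave an exact p of 0.0571, the smallest that 3 against 4 libraries can give, so a p under 0.05 was out of reach there.

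The nectins, immunoglobulin-like adhesion proteins that bind afadin, split by segment within the family. Nectin3 had 35.05, 48.6 and 38.9 CPM in the proximal KO libraries and 35.7, 42.3, 42.4 and 37.7 CPM in the proximal WT libraries, against 11.7, 11.2, 13.7 and 13.3 CPM in the distal KO libraries and 13.5, 15.8, 11.2 and 10.9 CPM in the distal WT libraries. Every proximal library was above every distal one, and the log2 ratio was 1.74 ± 0.18 in KO (adjusted p = 2.26e-06) and 1.64 ± 0.13 in WT (adjusted p = 3.91e-08).

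Nectin1 was also higher in proximal tubule, with 3.86, 4.25 and 4.96 CPM in the proximal KO libraries and 5.23, 4.59, 8.33 and 3.85 CPM in the proximal WT libraries, against 0.235, 0.145, 0.0965 and 0.506 CPM in the distal KO libraries and 0, 0.436, 0.0256 and 0.303 CPM in the distal WT libraries. Every proximal library was above every distal one. The ratio of group sums was 17.3 in KO (95% interval 12.6 to 24.5, adjusted p = 6.68e-06) and 26.1 in WT (18.5 to 37.9, adjusted p = 4.99e-05), the intervals covering counting error only. The WT ratio rests on few distal counts: the fitted log2 ratio of 5.59 became 4.85 without distal WT replicate 1, 6.37 without replicate 2 and 6.19 without replicate 4, the call remaining each time.

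Nectin2 went the other way, with 0.447, 0.246 and 0.376 CPM in the proximal KO libraries and 0.6903, 0.463, 0.688 and 0.413 CPM in the proximal WT libraries, against 4.69, 2.56, 2.82 and 2.58 CPM in the distal KO libraries and 3.88, 5.04, 2.85 and 3.64 CPM in the distal WT libraries. The segments did not overlap, and the log2 ratio of proximal over distal was -3.06 ± 0.49 in KO (adjusted p = 1.62e-04) and -2.75 ± 0.33 in WT (adjusted p = 2.85e-06).

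Epcam encodes the epithelial cell adhesion molecule, a protein known to stabilise claudins at the membrane. It had 0.335, 0 and 0 CPM in the proximal KO libraries and 0, 0.0211, 0.0382 and 0.115 CPM in the proximal WT libraries, against 26.6, 24.6, 22.3 and 22.7 CPM in the distal KO libraries and 27.3, 28.7, 21.3 and 22.1 CPM in the distal WT libraries. All 12 proximal KO counts came from replicate 4, and the proximal WT libraries held 8 counts together. As ratios of group sums, Epcam was 243-fold lower in proximal than distal KO tubules (139 to 470) and 590-fold lower in proximal than distal WT tubules (299 to 1370). The adjusted p was 2.35e-06 in KO and 1.94e-08 in WT. The fitted log2 ratio in KO was -9.39, and it was -10.99 without proximal KO replicate 4, -8.78 without replicate 5 and -8.60 without replicate 7. In WT it was -9.36, and -8.76 without proximal WT replicate 1. Per length, Epcam ranked 38 of 39 members in both proximal groups and 3 of 39 in both distal groups.

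Among membrane proteins of the tight junction, 4 of 8 were called lower in proximal tubule in KO and 6 of 8 in WT, with 1 higher in each genotype. Of all genes tested, 19.2% were called lower and 21.3% higher in KO, and 24.2% lower and 24.3% higher in WT. The 6 in WT include Marveld2, Jam2 and Esam, whose limits are given below. F11r (JAM-A, a junctional adhesion molecule of epithelia) had 13.03, 11.7 and 13.99 CPM in the proximal KO libraries and 11.9, 13.96, 13.6 and 12.8 CPM in the proximal WT libraries, against 25.7, 21.1, 21.1 and 27.8 CPM in the distal KO libraries and 30.1, 32.9, 27.7 and 28.3 CPM in the distal WT libraries. Proximal libraries were all below distal ones, and the log2 ratio was -0.85 ± 0.18 in KO (adjusted p = 0.00167) and -1.18 ± 0.11 in WT (adjusted p = 2.55e-07).

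Ocln (occludin, a membrane-spanning protein of the tight junction strand) had 2.18, 3.59 and 1.75 CPM in the proximal KO libraries and 2.09, 2.61, 2.87 and 2.96 CPM in the proximal WT libraries, against 6.72, 6.14, 7.55 and 4.995 CPM in the distal KO libraries and 6.09, 8.05, 6.51 and 7.95 CPM in the distal WT libraries. The log2 ratio of proximal over distal was -1.35 ± 0.28 in KO (adjusted p = 0.00148) and -1.46 ± 0.18 in WT (adjusted p = 5.07e-06). The segments did not overlap in either genotype.

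Jam3 (JAM-C) was the membrane protein with the opposite direction, with 1.99, 1.43 and 1.77 CPM in the proximal KO libraries and 1.21, 1.96, 3.802 and 1.35 CPM in the proximal WT libraries, against 0, 0.175, 0.0241 and 0.161 CPM in the distal KO libraries and 0.238, 0.206, 0.231 and 0.152 CPM in the distal WT libraries. Proximal libraries were all above distal ones. The ratio of group sums was 19.3 in KO (11.3 to 36.0, adjusted p = 1.22e-04) and 10.6 in WT (7.37 to 15.7, adjusted p = 3.90e-04). The fitted log2 ratio in KO was 4.82, and 4.07 without distal KO replicate 5, which held no count.

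Marveld2 (tricellulin, found where 3 cells meet) was called lower in proximal WT tubule (-0.52 ± 0.21, adjusted p = 0.0465) and not in KO (-0.08 ± 0.30). The WT call was lost without any one of WT proximal replicates 2, 3 and 6 or WT distal replicates 1, 3 and 4. Its relative Marveld3 was not called in either genotype. Cxadr, the coxsackievirus and adenovirus receptor of epithelial junctions, was lower in proximal tubule by -1.01 ± 0.27 in KO and -0.82 ± 0.23 in WT. Exons of Cxadr overlap those of Btg3 on the other strand, and whether counting used strand is not known here.

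Jam2 and Esam are adhesion molecules known chiefly from endothelium. Esam had 0.454 ± 0.163 CPM in proximal KO and 0.301 ± 0.145 CPM in proximal WT, against 1.04 ± 0.22 CPM in distal KO and 1.31 ± 0.377 CPM in distal WT (SD). It was called lower in proximal tubule in both genotypes (-1.19 ± 0.45 in KO and -2.17 ± 0.46 in WT), though the KO call was lost without any one of the libraries except proximal replicate 5. Jam2 was called in WT (-1.68 ± 0.39) and not in KO (-0.94 ± 0.48). The summed level of 9 endothelial markers moved with them, at 19.8 to 35.4 CPM in proximal KO and 11.7 to 23.7 CPM in proximal WT, against 39.9 to 46.2 CPM in distal KO and 49.4 to 66.2 CPM in distal WT. No library was at 0 for any of the 9, and their part in these results was not tested.

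The scaffold and plaque proteins held a pair of relatives in opposite directions. Cgnl1 (paracingulin, a junction plaque protein) had 31.9, 52.95 and 40.3 CPM in the proximal KO libraries and 27.8, 30.8, 56.6 and 27.4 CPM in the proximal WT libraries, against 18.8, 11.3, 13.1 and 17.6 CPM in the distal KO libraries and 11.5, 14.3, 12.02 and 18.3 CPM in the distal WT libraries. Proximal libraries were all above distal ones, with WT proximal replicate 3 the highest, and the log2 ratio was 1.49 ± 0.22 in KO (adjusted p = 7.79e-05) and 1.29 ± 0.22 in WT (adjusted p = 1.28e-04). Cgn (cingulin), its closest relative, was lower in proximal tubule, with a log2 ratio of -1.68 ± 0.53 in KO (adjusted p = 0.0202) and -1.44 ± 0.40 in WT (adjusted p = 0.00652), and without proximal KO replicate 4 the KO call was lost.

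Tjp1 (ZO-1), the central scaffold of the tight junction, averaged 10.1 ± 2.599 CPM in proximal KO and 10.2 ± 0.976 CPM in proximal WT, against 16.2 ± 1.22 CPM in distal KO and 16.4 ± 2.47 CPM in distal WT (SD). The log2 ratio was -0.68 ± 0.20 in KO (adjusted p = 0.0162) and -0.69 ± 0.14 in WT (adjusted p = 4.92e-04). Without proximal KO replicate 7 or distal KO replicate 5 the KO call was lost.

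Tjp3 (ZO-3) was almost absent from proximal libraries, with 0, 0.394 and 0 CPM in the proximal KO libraries and 0, 0.0421, 0.0573 and 0 CPM in the proximal WT libraries, against 1.17, 1.08, 1.71 and 1.31 CPM in the distal KO libraries and 1.56, 2.25, 1.28 and 1.495 CPM in the distal WT libraries. All 16 proximal KO counts came from replicate 5. As ratios of group sums, Tjp3 was 10.1-fold lower in proximal than distal KO tubules (6.09 to 18.0, adjusted p = 9.79e-04) and 63.6-fold lower in proximal than distal WT tubules (26.9 to 197, adjusted p = 1.89e-06). The fitted log2 ratio in KO was -5.01, and it was -4.38 without proximal KO replicate 4, -6.73 without replicate 5 and -4.03 without replicate 7. A stretch of 40 bases of its exons overlaps Apba3, a gene on the other strand with more counts than Tjp3.

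Amotl1, an angiomotin relative that binds actin and the Hippo effector YAP, had 1.51, 1.23 and 2.74 CPM in the proximal KO libraries and 0.544, 0.948, 0.592 and 0.3897 CPM in the proximal WT libraries, against 3.29, 3.202, 1.95 and 1.61 CPM in the distal KO libraries and 2.25, 2.75, 2.31 and 3.47 CPM in the distal WT libraries. The WT segments did not overlap and the KO segments did, and the log2 ratio was -0.39 ± 0.37 in KO (adjusted p = 0.445) and -2.17 ± 0.32 in WT (adjusted p = 3.06e-05). Its relative Amotl2 was likewise called in WT (-1.31 ± 0.41) and not in KO (-0.90 ± 0.57), and the WT call was lost without proximal WT replicate 2.

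Magi1, a scaffold with several PDZ domains, was lower in proximal tubule in both genotypes (-0.88 ± 0.32 in KO and -1.02 ± 0.22 in WT), and its KO call was lost without any one of proximal replicates 4 and 7 or distal replicates 5, 7 and 8. Its relative Magi3 was called higher in proximal WT (0.82 ± 0.25) and not called in KO (0.16 ± 0.27), and the WT call was lost without distal WT replicate 4. Symplekin, a plaque protein that also acts in RNA processing in the nucleus, was not called in either genotype.

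Of the 8 polarity genes, 4 were called higher and 1 lower in proximal tubule in KO, and 3 higher and 2 lower in WT. Beside them, 21.3% of all genes tested were called higher and 19.2% lower in KO, and 24.3% higher and 24.2% lower in WT. Prkcz (atypical protein kinase C zeta) had 6.82, 6.17 and 9.23 CPM in the proximal KO libraries and 7.196, 6.28, 8.86 and 6.08 CPM in the proximal WT libraries, against 2.14, 1.92, 2.85 and 4.397 CPM in the distal KO libraries and 2.04, 1.49, 1.23 and 1.99 CPM in the distal WT libraries. The segments did not overlap, and the log2 ratio was 1.46 ± 0.29 in KO (adjusted p = 8.52e-04) and 2.09 ± 0.24 in WT (adjusted p = 1.48e-06). Its close relative Prkci was not called, at -0.12 ± 0.22 in KO (95% interval -0.59 to 0.35) and 0.04 ± 0.15 in WT (-0.27 to 0.36).

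Mpp5 (Pals1, which joins Crumbs to Patj) had 33.1, 34.1 and 35.1 CPM in the proximal KO libraries and 36.2, 33.4, 25.4 and 30.9 CPM in the proximal WT libraries, against 15.04, 14.96, 18.2 and 14.8 CPM in the distal KO libraries and 15.4, 16.4, 13.7 and 12.2 CPM in the distal WT libraries. Every proximal library was above every distal one, and the log2 ratio was 1.16 ± 0.16 in KO (adjusted p = 4.44e-05) and 1.12 ± 0.14 in WT (adjusted p = 4.26e-06).

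Mpdz (MUPP1), a scaffold with many PDZ domains, had 2.18, 5.17 and 2.74 CPM in the proximal KO libraries and 4.75, 3.94, 3.73 and 3.35 CPM in the proximal WT libraries, against 0.261, 0.378, 1.01 and 1.73 CPM in the distal KO libraries and 1.19, 0.596, 0.897 and 0.5199 CPM in the distal WT libraries. The segments did not overlap, and the log2 ratio was 2.24 ± 0.53 in KO (adjusted p = 0.00348) and 2.41 ± 0.30 in WT (adjusted p = 4.93e-06). Patj, its relative, was called in KO (0.65 ± 0.19) and not in WT (0.25 ± 0.13), and the difference between these ratios did not pass the test of genotype by segment (adjusted p = 0.944). Without proximal KO replicate 7 the KO call was lost.

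Crb3 (Crumbs3), the membrane anchor of that complex, was lower in proximal tubule in both genotypes (-1.40 ± 0.36 in KO and -0.82 ± 0.29 in WT), and its WT call was lost without any one of replicates 1 and 6 of proximal WT or replicates 1 and 3 of distal WT. Crb3 shares 14 exon bases with Dennd1c on the other strand. Pard6b, a Par6 protein, was lower in WT (-0.56 ± 0.15) and not called in KO (-0.49 ± 0.29). Pard3 was not called in either.

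Of the catenins and linkers, Ctnna1 (alpha-E-catenin, the actin link of the cadherin complex) had 19.4, 30.4 and 24.6 CPM in the proximal KO libraries and 22.7, 21.96, 21.6 and 20.2 CPM in the proximal WT libraries, against 59.3, 56.4, 56.1 and 67.9 CPM in the distal KO libraries and 42.1, 47.1, 54.4 and 63.5 CPM in the distal WT libraries. Its segments did not overlap, and the log2 ratio of proximal over distal was -1.25 ± 0.18 in KO (adjusted p = 5.58e-05) and -1.25 ± 0.13 in WT (adjusted p = 5.23e-07). Ctnnb1 (beta-catenin, which binds the cadherin tail) was slightly higher in proximal tubule, by 0.43 ± 0.15 in KO (adjusted p = 0.04) and 0.39 ± 0.11 in WT (adjusted p = 0.00956), and the KO call was lost when any one KO library was left out.

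Jup (plakoglobin) was lower in proximal WT tubule (-0.46 ± 0.15) and not called in KO (-0.32 ± 0.18), and the WT call was lost without proximal WT replicate 1 or distal WT replicate 2. Vcl (vinculin, recruited to alpha-catenin under tension) was called higher in proximal KO (0.93 ± 0.30) and not in WT (0.62 ± 0.27). The KO call was lost without proximal replicate 4 or 5 or distal replicate 5 or 8, and 2090 exon bases of Vcl overlap Ap3m1 on the other strand. Ctnnd1 (p120-catenin) and Afdn (afadin, the partner of nectins) were not called in either genotype.

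Within-library shares of related genes do not depend on the scaling between libraries, and 6 such pairs were chosen after their values were seen, so they are described without a test. Of Nectin2 and Nectin1 together, per length, Nectin2 made up 8.55 to 15.8% in proximal KO and 11.8 to 17.6% in proximal WT, against 89.2 to 97.9% in distal KO and 94.9 to 100% in distal WT. Nectin1 was thus the larger in every proximal library and Nectin2 in every distal one. Of Cgn and Cgnl1 together, Cgn made up 1.02 to 2.44% in proximal KO and 1.16 to 2.76% in proximal WT, against 8.61 to 17.2% in distal KO and 7.15 to 15.1% in distal WT, so paracingulin was the larger of the pair in all 15 libraries.

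Cdh1 was 86.4 to 94.4% of Cdh1 and Cdh2 in proximal KO and 66.2 to 92.4% in proximal WT, against 100% in every distal KO library and at least 99.99% in every distal WT library. Cdh1 thus exceeded Cdh2 per length in the proximal libraries too. Of Prkci and Prkcz together, Prkci made up 42.8 to 63.9% in proximal KO and 45.03 to 59.1% in proximal WT, against 64.8 to 82.9% in distal KO and 81.3 to 86.4% in distal WT.

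**Figure D3:**
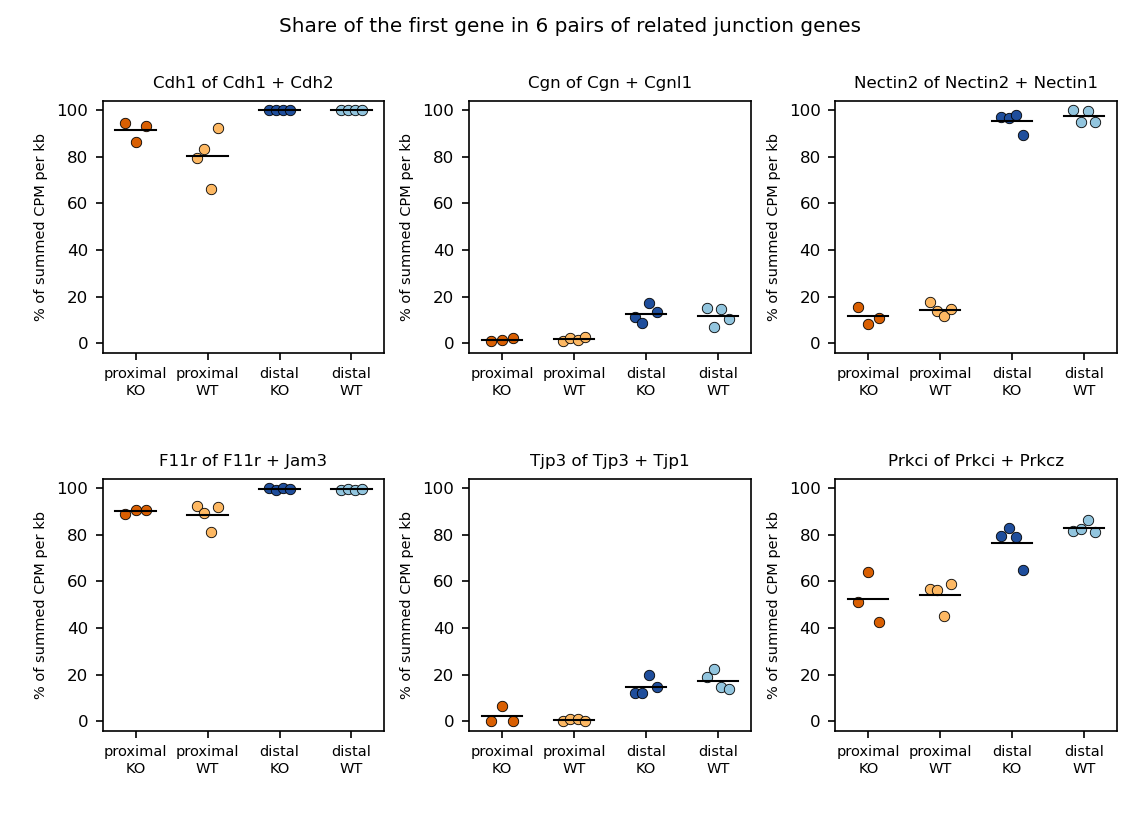
Share of the first-named gene in 6 pairs of related genes, as a percentage of the pair's summed CPM per kb of exon, with 1 point per library and a line at the group mean. Nectin2 makes up at most 17.6% of its pair in proximal libraries and at least 89.2% in distal ones.

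Outside the 39 members, a wider list of 70 junction, polarity and adhesion genes gave 9 called higher and 18 lower in proximal tubule of 58 tested in KO, and 11 higher and 25 lower of 58 tested in WT. Over all genes tested, 21.3% were called higher and 19.2% lower in KO, and 24.3% higher and 24.2% lower in WT. Ildr2, an angulin, had 33.6 ± 5.92 CPM in proximal KO and 34.4 ± 4.69 CPM in proximal WT, against 0.08803 ± 0.0587 CPM in distal KO and 0.125 ± 0.105 CPM in distal WT (SD). Its relative Ildr1, an angulin that recruits tricellulin to the points where 3 cells meet, had 0 CPM in proximal KO and 0.0162 ± 0.0109 CPM in proximal WT, against 11.8 ± 3.26 CPM in distal KO and 11.9 ± 1.78 CPM in distal WT. These relatives were therefore on opposite sides between segments.

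Of the same list, Cdhr5 and Cdhr2, protocadherins of brush border microvilli, were both higher in proximal tubule. Cdhr5 differed by 2.04 ± 0.23 in KO and 2.29 ± 0.13 in WT. Cdhr2 had 3.43 ± 1.21 CPM in proximal KO and 6.15 ± 0.984 CPM in proximal WT, against 0 CPM in distal KO and 0.0394 ± 0.0652 CPM in distal WT. Epb41l5, a FERM-domain protein of polarity, was higher by 1.60 ± 0.12 in WT, and Ctnnal1 (alpha-catulin) had a ratio of -2.70 ± 0.21 in WT. Cdh3 (P-cadherin) had 0 CPM in proximal KO and 0 CPM in proximal WT, against 5.63 ± 0.532 CPM in distal KO and 4.34 ± 0.494 CPM in distal WT.

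Between KO and WT mice none of the 39 members was called. In proximal tubule 37 of 39 passed the filter, Epcam and Tjp3 being too low, and limma with voom weights called 0 of them, as did limma-trend. Of all 13229 genes tested, the voom fit called 0.181%, which is 24 genes, and limma-trend called 28 genes. At an unadjusted p under 0.05 there were 3 members of 37, beside 7.36% of all genes. The median log2 ratio of KO over WT was 0.0030 over these members and -0.03 over all genes tested. KO and WT libraries did not overlap for 3 members above and 2 below, beside 7.91% of all genes tested.

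For 25 of the 37 members the 95% interval of the KO over WT ratio lay within a 2-fold change in either direction, and for 13 within 1.5-fold. Tjp1 at -0.06 ± 0.20, Ctnnb1 at -0.04 ± 0.15, Nectin3 at 0.03 ± 0.16 and F11r at -0.03 ± 0.16 were among the 25. The intervals reached past 2-fold for the 12 others: Marveld3, Cgn, Jam2, Jam3, Crb3, Nectin2, Cdh1, Cdh2, Cdh6, Amotl1, Amotl2 and Esam.

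The 5 members with the smallest p in proximal tubule are given although they failed the adjusted threshold. Amotl1 had 1.51, 1.23 and 2.74 CPM in the proximal KO libraries, against 0.544, 0.948, 0.592 and 0.3897 CPM in the proximal WT libraries. All 3 KO libraries were above all 4 WT libraries, with a log2 ratio of 1.54 ± 0.41 (unadjusted p = 0.00241, adjusted p = 0.247). The authors' deposited table gives Amotl1 a log2 fold change of 1.57 with an adjusted p of 0.0535, the lowest of any member there. Over the alternatives the log2 ratio ran from 1.002 to 1.805 and the adjusted p from 0.105 to 0.598. WT replicate 6 and KO replicate 7 carry library numbers of another series than the other proximal libraries. Without this pair the log2 ratio of Amotl1 was 1.002 (adjusted p = 0.521).

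Cdh1 had 16.1, 12.2 and 12.8 CPM in the proximal KO libraries, against 7.49, 8.68, 5.08 and 11.2 CPM in the proximal WT libraries. Again the groups did not overlap, with a log2 ratio of 0.80 ± 0.24 (unadjusted p = 0.00488, adjusted p = 0.336, over the alternatives 0.0971 to 0.755). The authors' deposited table gives 0.76 with an adjusted p of 0.172. Without the libraries of the other number series the ratio was 1.02 (adjusted p = 0.2). As a share of the 4 cadherins, Cdh1 was 9.501 ± 1.92% in KO and 5.08 ± 1.77% in WT (exact two-sided permutation p = 0.0571, adjusted over 16 shares 0.102). Slc12a3, the thiazide-sensitive cotransporter that defines the distal convoluted tubule, averaged 0.0186 CPM in proximal KO and 0.273 CPM in proximal WT, against 725 CPM in distal KO and 669 CPM in distal WT. Its proximal KO against WT ratio was not called (adjusted p = 0.247), and 2 proximal KO libraries were at 0. The 7 distal convoluted tubule markers together, mostly Wnk1, summed to 23.2 to 34.8 CPM in proximal KO and 26.8 to 32.5 CPM in proximal WT. The part of distal cells in the Cdh1 values was not tested.

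The summed level of 6 genes of the straight proximal segment, a list chosen after the data were seen, was higher in proximal KO than in proximal WT, as Cdh1 and Amotl1 were. It was 559 to 674 CPM in proximal KO and 194 to 388 CPM in proximal WT, without overlap. Among the proximal WT libraries, replicates 3, 1, 2 and 6 had sums of 194, 265, 310 and 388 CPM. Their Cdh1 was 5.08, 7.49, 8.68 and 11.2 CPM. Proximal KO replicates 5, 7 and 4 had sums of 559, 563 and 674 CPM, with Cdh1 at 12.2, 12.8 and 16.1 CPM. Cdh1 thus had the same order as the sum over all proximal libraries, within each genotype and between them. Amotl1 did not, being lowest (0.3897 CPM) in WT replicate 6, which had the highest WT sum. The 5 genes of the list that were tested all had a ratio above 0, and Atp11a was called (log2 ratio 1.60, adjusted p = 0.0275). Cyp7b1, the sixth, was at 0 in 1 proximal KO and 2 proximal WT libraries. The 9 endothelial markers also all had a proximal ratio above 0, with none called. The part of either list in the Cdh1 and Amotl1 values was not tested.

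Marveld3 had 1.51, 1.99 and 0.819 CPM in the proximal KO libraries, against 2.11, 2.17, 2.22 and 2.31 CPM in the proximal WT libraries. The KO libraries were all below the WT ones, with a log2 ratio of -0.73 ± 0.32 (unadjusted p = 0.0383, adjusted p = 0.655). Cdh6 had 0.1398, 1.08 and 0.576 CPM in the proximal KO libraries, against 2.45, 0.821, 0.802 and 1.17 CPM in the proximal WT libraries, with overlap between the groups (-1.27 ± 0.64, adjusted p = 0.72), and the log2 ratio was -0.58 without KO replicate 4.

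Cdh16 had 100.7, 116.6 and 106.4 CPM in the proximal KO libraries, against 129.6, 117.4, 134.4 and 119.7 CPM in the proximal WT libraries. The groups did not overlap, and the log2 ratio was -0.23 ± 0.14 (adjusted p = 0.768). Ctnnd1 was the fifth member without overlap, with every KO library above the WT ones (0.16 ± 0.18, adjusted p = 0.876).

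In distal tubule 36 of 39 members passed the filter, Cdh2, Nectin1 and Jam3 being too low, and limma with voom weights called 0 of them between KO and WT, as did limma-trend. Of all 12969 genes tested, 0.0% were called. At an unadjusted p under 0.05 there were 3 members of 36, beside 7.09% of all genes. The median log2 ratio was -0.0106 over these members and -0.0073 over all genes. For 31 of the 36 members the 95% interval lay within a 2-fold change and for 15 within 1.5-fold, and the 5 with wider intervals were Marveld3, Cgn, Mpdz, Prkcz and Cdh6. The groups did not overlap for 1 member, Patj, beside 3.8% of all genes tested.

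**Figure D4:**
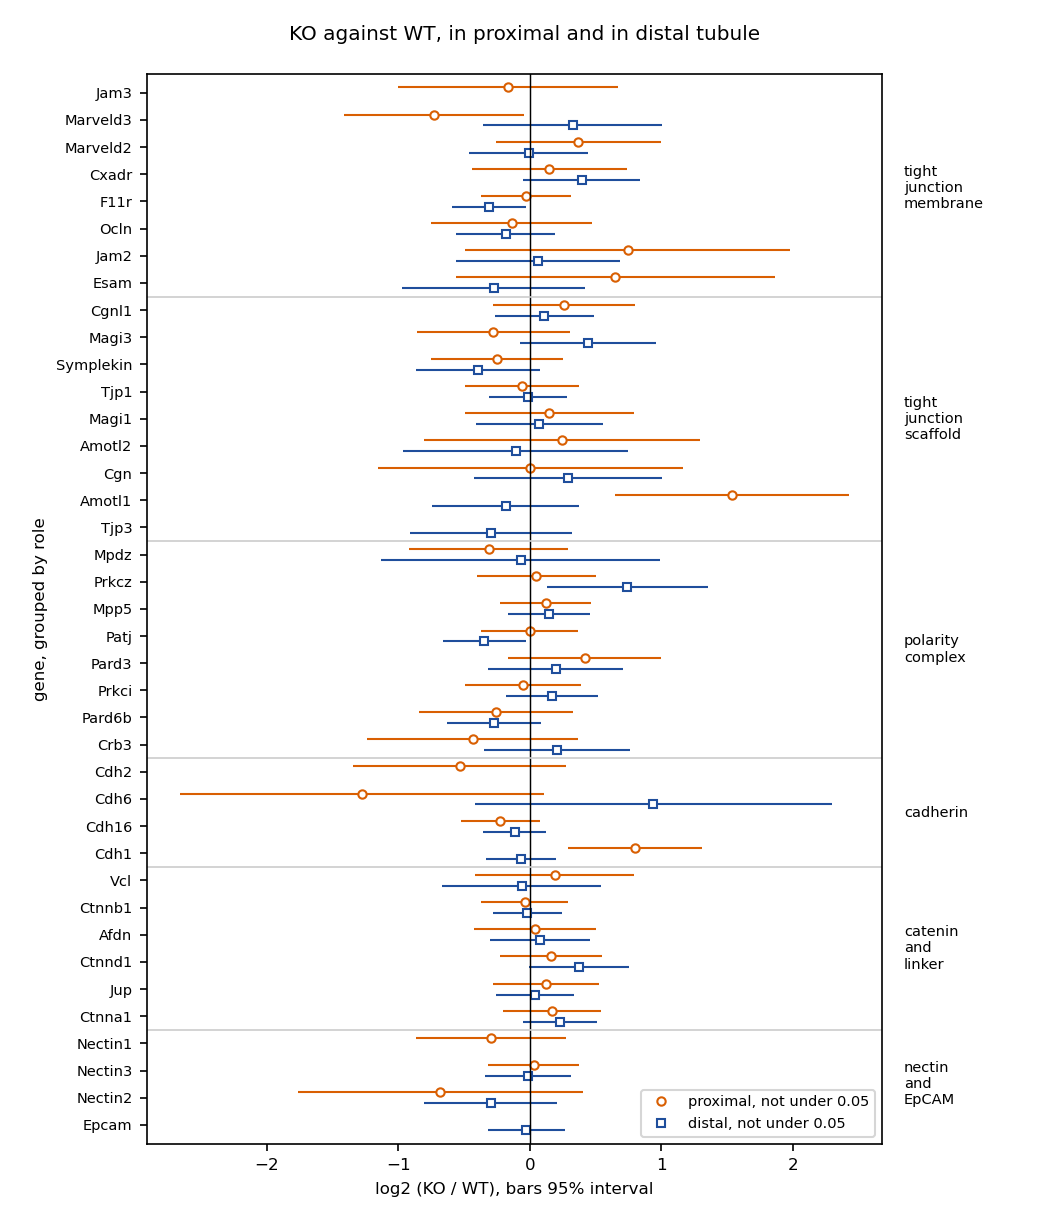
Log2 ratio of KO over WT for each gene in proximal (circles) and distal tubule (squares), with 95% intervals. Genes with no symbol in a segment did not pass the filter there. No gene shown reached an adjusted p under 0.05, and the interval of Amotl1 in proximal tubule lies farthest to the right of 0.

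The 5 members with the smallest p in distal tubule likewise failed the adjusted threshold. Prkcz had 2.14, 1.92, 2.85 and 4.397 CPM in the distal KO libraries, against 2.04, 1.49, 1.23 and 1.99 CPM in the distal WT libraries, a log2 ratio of 0.74 ± 0.29 (unadjusted p = 0.0203, adjusted p = 0.667). The groups overlapped, with KO replicates 5, 7 and 8 above every WT library and replicate 6 within the WT range. F11r had 25.7, 21.1, 21.1 and 27.8 CPM in the distal KO libraries, against 30.1, 32.9, 27.7 and 28.3 CPM in the distal WT libraries (-0.31 ± 0.14, unadjusted p = 0.0338, adjusted p = 0.686). Its groups overlapped by KO replicate 8, which lay just above the lowest WT value.

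Patj had 8.86, 8.62, 8.2 and 8.12 CPM in the distal KO libraries, against 9.93, 12.7, 10.3 and 10.4 CPM in the distal WT libraries, and every KO library was below every WT library (-0.35 ± 0.15, unadjusted p = 0.0343, adjusted p = 0.686). Ctnnd1 had 8.32, 6.84, 6.61 and 10.4 CPM in the distal KO libraries, against 6.63, 6.19, 6.69 and 5.44 CPM in the distal WT libraries (0.38 ± 0.18, adjusted p = 0.687). Cxadr had 6.26, 8.27, 8.78 and 6.49 CPM in the distal KO libraries, against 7.41, 5.71, 7.03 and 3.73 CPM in the distal WT libraries (0.39 ± 0.21, adjusted p = 0.701). Both overlapped between genotypes. In the authors' deposited table of distal tubule 26 members have an adjusted p, and the lowest is 0.461, for Prkcz.

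**Figure D5:**
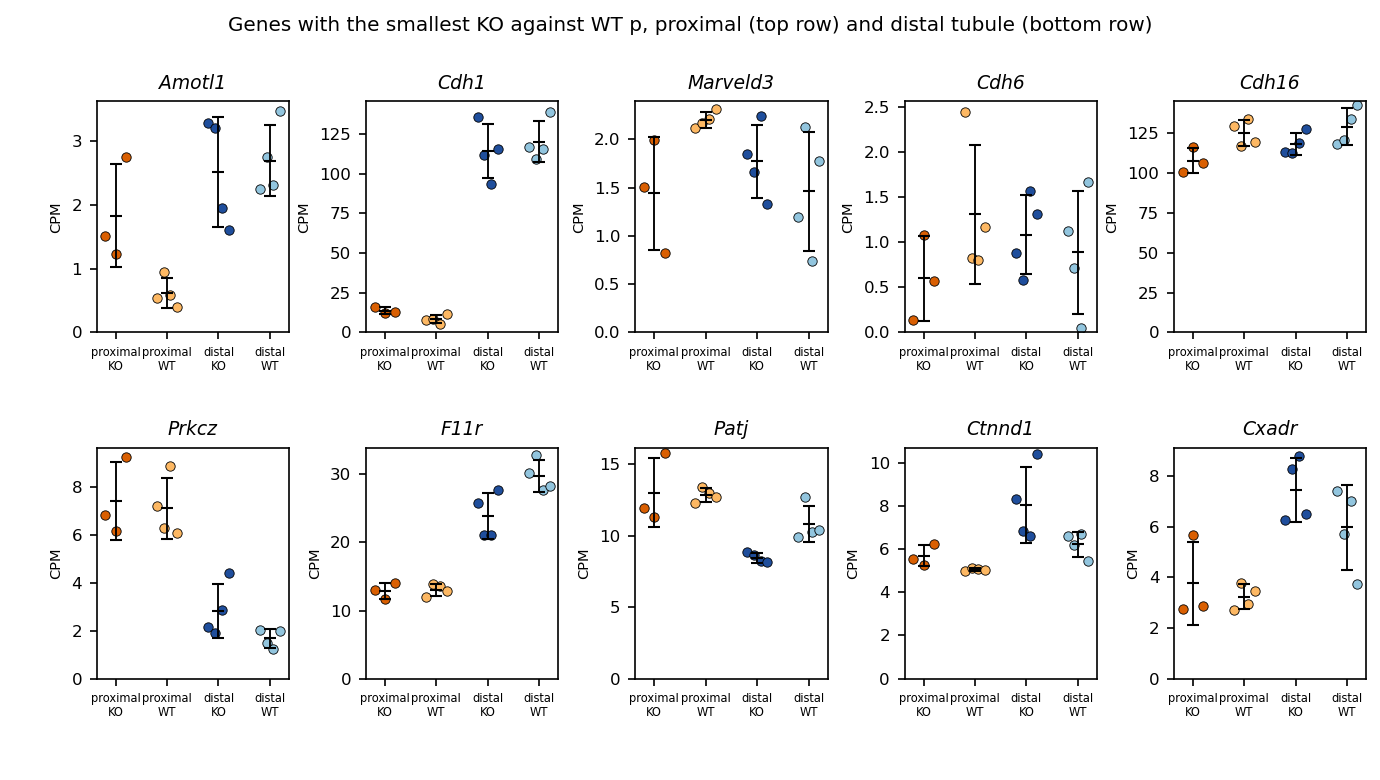
CPM of the 5 genes with the smallest unadjusted KO against WT p in proximal tubule (top row) and distal tubule (bottom row), in all 15 libraries, with the group mean and SD. Amotl1 and Cdh1 are higher in all 3 proximal KO libraries than in all 4 proximal WT libraries.

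Whether the effect of genotype differed between segments was tested as an interaction. In it limma with voom weights called 0 of 39 members and 0.0% of all 15279 genes tested. With limma-trend 0 members and 5 genes of 15279 were called. At an unadjusted p under 0.05 there were 4 members, beside 5.5% of all genes. Amotl1 had the smallest p, with a difference of log2 ratios of 1.75 ± 0.50 (adjusted p = 0.629), followed by Cdh1 with 0.89 ± 0.26 (adjusted p = 0.639). The 95% interval lay within a 2-fold difference for 18 of 39 members. The proximal libraries stand both in the KO against WT ratio and in the segment ratios, so these values of Amotl1 and Cdh1 rest on the same counts.

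Of the wider list, limma called 0 of 51 tested genes in the proximal KO against WT comparison and 0 of 56 in the distal one, with 6 and 10 at an unadjusted p under 0.05, beside 7.36% of all genes in the proximal comparison and 7.09% in the distal one.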

How the data were processed

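RNA of enzymatically prepared mouse tubules was extracted with the RNeasy Plus Micro kit and sequenced from Nextera XT libraries, per the labels' protocols. The deposited counts are whole numbers per gene and library. The submitters' processing notes name the build GRCm38 with STAR 2.5, DESeq2 1.24.0 and CASAVA 1.8; how reads were counted, and with which strand setting, was not stated. Comparisons of KO with WT that the authors deposited, as log2 fold changes with p-values, were read only where named, their sign taken from Cldn10.

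Counts were scaled by a trimmed mean of log ratios (30% and 5% trimmed) and tested with limma 3.58.1 in R 4.3.3 with voom weights (prior 0.5), on the libraries of each comparison alone. Genes needed about 10 counts in a number of libraries equal to the smaller group, and 15 in total. Adjustment ran over all genes tested. No count model was run. Shares were tested by exact permutation (scipy 1.17.1). Exon lengths and overlaps come from GENCODE M21. The fits were tested on simulated data. Intervals on group sums and the limit of 3 counts cover counting error only. Nothing in the labels ties libraries of a group to separate animals, and the p-values then reflect a spread that may be technical.

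The members, the wider list and the markers were chosen with earlier results of these data known. Values in every library are given for Cldn10, for up to 8 members higher and 8 lower with the smallest p between segments in WT, and for 5 members per segment with the smallest p between genotypes. Of the wider list, the 3 called genes with the smallest p in each direction are named, apart from a gene that is not reported here. Alternatives were another scaling, other filters, sample weights, limma-trend, one fit of all libraries, library number series, a replicate block and leaving out each library.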

Additional observations from a re-analysis of the deposited data

Results flagged for a closer look

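In 4 of 65 groups of 4 libraries, 1 library stood far from the other 3, past Dixon's 95% critical value, which chance gives in about 1 of 20 groups. Cgnl1 was 56.57 CPM in proximal WT replicate 3, against 27.35 to 30.81 CPM in the other proximal WT libraries. Mpp5 was 18.21 CPM in distal KO replicate 7, against 14.75 to 15.04 CPM in the other distal KO libraries. Nectin2 was 4.692 CPM in distal KO replicate 5, against 2.561 to 2.822 CPM in the others. Patj was 12.7 CPM in distal WT replicate 2, against 9.931 to 10.38 CPM in the others.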

How the results depend on the processing

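No named result reversed under any alternative run. Between KO and WT, in either segment and in the interaction, 0 members were called under every alternative. Over all genes, proximal KO against WT gave 24 calls, 119 in one fit of all 15 libraries, 80 with no filter, 37 with sample quality weights, and 2 to 18 with 1 library left out, 2 without proximal WT replicate 1 or replicate 3. Leaving out each library in turn gave 19 to 23 called members between segments in KO, where all libraries gave 24, and 27 to 29 in WT, where all gave 29. Other alternatives gave 20 to 25 in KO and 26 to 29 in WT, the replicate block aside in KO. The segment ratio of each called member was recomputed under each alternative, so a member can count more than once. Of these refits, 56 in KO and 25 in WT kept their direction and lost the call. The call stayed in 328 refits in KO and 468 in WT.

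Replicate numbers are shared across segments, but same-numbered libraries did not deviate together (r of -0.1443 and -0.3068 in KO, and -0.0317, -0.0586 and 0.0505 in WT). Between libraries of unlike number r ran from -0.1511 to 0.3525 in KO and from -0.1222 to 0.1322 in WT. With so few libraries these values cannot settle whether the numbers pair the samples. With the replicate block 12 members were called between segments in KO, and 14 on the same libraries without it, fewer libraries entering both fits than the 24 calls rest on. In WT both gave 26.

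The depth on nuclear genes limits the low members, for which 3 counts correspond to 0.0573 to 0.102 CPM.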
